A study of Homo sapiens with 96 samples.

Results

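The RNA of 10 genes of blood stem and progenitor cells was followed through 5 count tables of K562 cells. K562 is an erythroid-like cell line derived from a chronic myeloid leukaemia. The genes were MECOM, ZBTB16, KIT, RUNX1, GATA2, MEIS1, CD34, ERG, LYL1 and HHEX, taken by name, with earlier results of these data known. They are 10 of the 60605 gene IDs in 4 tables and 10 of the 50037 symbols in the remaining table, and each had an entry in all 5. The 96 libraries form 32 groups of 3.

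The BCOR and KDM2B tables are time courses, named for subunits of the Polycomb complex PRC1.1, with the degron tag mAID on BCOR or KDM2B by the names of their tables, in which K562 cells were left untreated or given 5phIAA for 2, 8, 24 or 72 h. 5phIAA is an auxin analogue, the ligand that triggers degradation of a protein carrying an auxin-inducible degron. Neither time course has a vehicle group. The construct table, whose name speaks of KDM2B mutants, holds 5 K562 lines, labelled EV, LF, SF, dLRRS and dCxxC, each with DMSO or 5phIAA. The labels do not spell these names out and do not say how many clones each line stands for. The inhibitor table holds K562 cells given DMSO, 5phIAA, GSK343 (an inhibitor of EZH2, the enzyme of PRC2) or both compounds, and here the table's name, not its titles, gives the KDM2B-mAID tag. The J2_7 table holds KDM2B-mAID and KDM2B-mAID_J2_7 cells under the same treatments, with the ligand spelled 5PhIAA, and its titles place the KDM2B degron in both lines, controls included. The name of that table speaks of wild type and of a double knockout of JARID2 and AEBP2, while no label says that J2_7 is the knockout. The sources used here give no doses, and no times for the last 3 tables. Nothing in the labels says that the libraries of a group came from separate cultures, so p-values measure the spread between libraries, which may be technical.

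Blood stem and progenitor cells depend on a set of transcription factors that bind together at many of the same regulatory regions, GATA2, RUNX1, ERG, LYL1 and MEIS1 among them. KIT is the receptor tyrosine kinase for stem cell factor, CD34 is the surface protein used to isolate these cells, and MECOM, ZBTB16 and HHEX are further transcription factors of stem cells, early progenitors or blood development. Several of these genes are switched on or off during differentiation. PRC1.1 is a Polycomb complex that reaches unmethylated CG-rich promoters through KDM2B and ubiquitinates histone H2A there.

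The promoters of KIT and RUNX1, both higher after ligand in more than 1 table, are shown with their CG content, since KDM2B binds unmethylated CG through its CxxC domain. Whether PRC1.1 sits at these promoters was not tested. Each is the 250 bases before the RefSeq transcription start on GRCh38.p14, on the gene's strand, with every CG in capitals. The KIT window is chr4:54657707-54657956 on the plus strand, and the RUNX1 window is chr21:34888700-34888949 on the minus strand. Both starts lie inside the annotated genes, and other starts of these genes were not examined.
KIT: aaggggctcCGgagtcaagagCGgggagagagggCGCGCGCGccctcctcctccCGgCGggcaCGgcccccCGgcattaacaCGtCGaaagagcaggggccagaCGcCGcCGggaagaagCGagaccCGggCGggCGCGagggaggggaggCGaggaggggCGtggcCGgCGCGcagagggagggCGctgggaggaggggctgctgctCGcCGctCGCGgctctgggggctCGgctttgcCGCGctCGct
RUNX1: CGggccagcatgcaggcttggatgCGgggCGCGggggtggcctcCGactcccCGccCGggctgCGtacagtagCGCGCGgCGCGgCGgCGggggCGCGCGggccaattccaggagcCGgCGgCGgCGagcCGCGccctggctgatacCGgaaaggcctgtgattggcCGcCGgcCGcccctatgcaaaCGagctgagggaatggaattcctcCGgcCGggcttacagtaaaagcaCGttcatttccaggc
The KIT window holds 34 CG and the RUNX1 window 32, against a median of 11 over the 35116 windows of the RefSeq table. Windows with at least as many CG make up 6.84% of the table for KIT and 9.52% for RUNX1. GC content was 76.4% in the KIT window and 71.2% in the RUNX1 window. HHEX had 38 CG in its window, GATA2 had 24 and 18 in its 2 windows, LYL1 had 19, MEIS1 had 16 and CD34 had 14. MECOM had 14, 8 and 14 in 3 windows, and the ERG window with the most had 44, matched or passed by 0.769% of windows. Short words were then searched on both strands, and none of them contains another. GGGCGG, found in 42.6% of all windows, had 1 match in the KIT window and 2 in that of RUNX1. TGATAA (6.66% of windows), AGATAA (9.17%), TGTGGT (11%), CANNTG (61.8%) and TGACAG (13%) had none in either. A match or its absence describes these letters in this window only. ZBTB16 is named without a sequence, since the RefSeq promoters used hold no entry for it.

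GATA2, LYL1 and HHEX were the most abundant of these RNAs and ZBTB16, KIT and MEIS1 the scarcest that could be tested, while CD34 and ERG were close to absent. Levels are given as CPM, a gene's counts scaled to a fixed library total with TMM factors within a table, and, to compare genes, per kb of exon length of the GENCODE annotation. The 4 tables of gene IDs were normalized separately, so levels set across them are descriptions. In untreated cells of the BCOR table the level was 36.3 CPM per kb for GATA2, 26.8 for HHEX, 26.6 for LYL1, 8.93 for RUNX1, 5.03 for MECOM, 1.13 for KIT, 0.831 for MEIS1 and 0.0693 for ZBTB16. HHEX and LYL1 stood closer in this order than the 3 LYL1 libraries did to each other, at 92.9, 74.1 and 82.3 CPM. In untreated cells of the KDM2B table KIT was at 0.183 CPM per kb, below ZBTB16 at 0.281 and MEIS1 at 2.32. In the EV line with DMSO, MECOM at 7.25 CPM per kb stood above RUNX1 at 5.47, the reverse of the order in the time courses. In the inhibitor table with DMSO, KIT was at 0.716 CPM per kb and ZBTB16 at 0.0512.

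**Figure D1:**
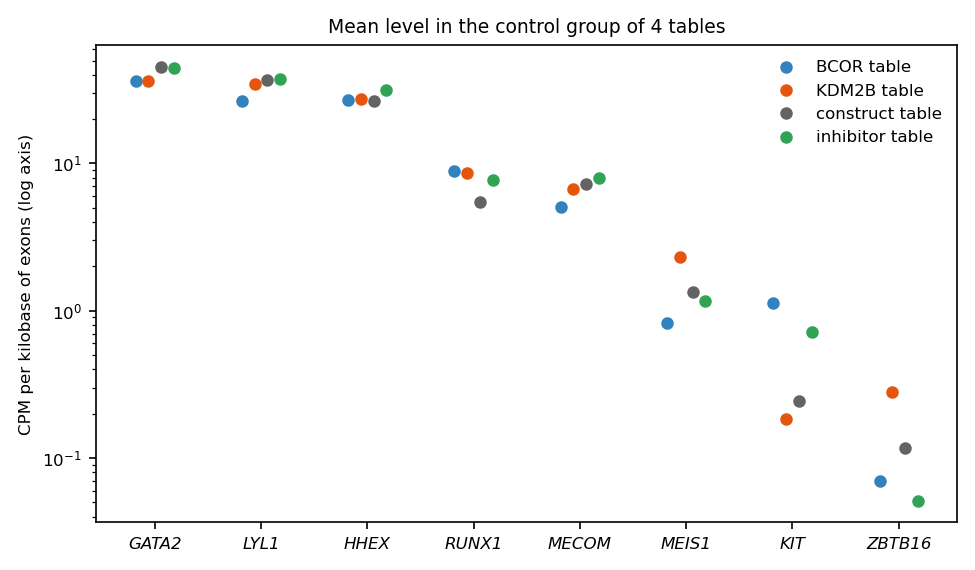
Mean level of each tested gene in CPM per kb of exon, on a log axis. The groups are the untreated or DMSO ones (EV in the construct table) of the 4 tables of gene IDs. CD34 and ERG, close to absent, are not drawn. GATA2, LYL1 and HHEX sit at the top in every table, and KIT and ZBTB16 change places between tables.

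CD34 held at most 3 counts and ERG at most 4 counts in any library. CD34, the marker gene of the stem and progenitor compartment, summed to 5, 3, 4, 3 and 3 counts over the BCOR, KDM2B, construct, inhibitor and J2_7 tables. ERG, an ETS factor of stem cells and endothelium, summed to 0, 6, 18, 2 and 0 counts in that order, and its highest values were the 2, 3 and 4 counts of the SF line with ligand. No comparison was made for either gene. The remaining 8 genes passed the filter on low counts in 4 tables, and 7 passed in the J2_7 table, where KIT did not.

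The libraries held 782663 to 24545679 counts, and the 2 shallowest were library 1 of the J2_7 cells with GSK343 at 782663 counts and library 1 of the EV line with ligand at 2346542 counts. That EV library also stood apart from its group, with a chi-square per gene of 84.7 and 77.5 against the group's other libraries, where any other pair of libraries of a group had at most 16.5. Results of EV with ligand for KIT, RUNX1 and HHEX are therefore given with and without it. The erythroid markers of K562 were present throughout, with 9 of 10 at 1 CPM or more in the tables of gene IDs. In every group of those tables TFRC held most of their summed level. Fibroblast markers summed to at most 4.51 CPM in any library. Of the endothelial list of 6 genes, shared in part with stem cells, CDH5 was at 0 in most groups and ESAM led most sums. The lymphoid list of 7 genes, led by CD3D, summed to 1.99 to 11.9 CPM per library in the tables of gene IDs and to 18.4 to 51.6 CPM in the J2_7 table, with MS4A1 at 0 throughout. RNA of KDM2B stood at 75.0 CPM untreated and 84.0 CPM at 72 h in the KDM2B table, and RNA of BCOR at 307 and 1075 CPM in the BCOR table. These RNA levels do not measure loss of the protein.

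Ligand in the BCOR table was followed by a graded rise of ZBTB16, a later rise of RUNX1, a rise of KIT at 8 and 24 h and an early rise of MECOM. A gene was called, and is said to have risen or fallen, when edgeR's quasi-likelihood test gave a Benjamini-Hochberg adjusted p under 0.05 over all genes of the comparison and when its log2 fold change was beyond 0.585 in either direction, the thresholds the labels name. At 2 h 1 of the 8 genes was called, against 0.836% of all genes tested, at 8 h 2 against 2.71%, at 24 h 3 against 4.2% and at 72 h 2 against 7.12%. Every one of these calls was a rise. The median log2 fold change of the 8 genes was 0.05, 0.41, 0.32 and 0.47 at 2, 8, 24 and 72 h, where that of all genes was between -0.01 and 0.01. The 4 comparisons share the untreated libraries.

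ZBTB16, or PLZF, a zinc finger repressor and partner in a fusion of acute promyelocytic leukaemia, was at 1.36, 0.918 and 1.16 CPM in the untreated libraries and at 1.49, 1.52 and 0.671 CPM after 2 h. It was at 4.37, 4.36 and 3.52 CPM after 8 h, at 6.55, 7.84 and 5.28 after 24 h and at 13, 15.1 and 14.2 after 72 h. From 8 h onward each time point lay wholly above the one before it. The log2 fold change was 1.87 at 8 h (SE 0.24, adjusted p = 4.44e-05), 2.54 at 24 h (SE 0.23, adjusted p = 2.17e-07) and 3.63 at 72 h (SE 0.21, adjusted p = 2.57e-11), a 12.4-fold rise. In bulk RNA a higher level per cell and a larger share of cells with the transcript cannot be told apart. Between 24 and 72 h it was the only one of the 8 genes called, against 0.581% of all genes, with a log2 fold change of 1.09 (SE 0.17, adjusted p = 0.00224).

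RUNX1, the DNA-binding subunit of core binding factor, was at 123, 139 and 155 CPM untreated, 152, 147 and 139 CPM at 2 h and 187, 180 and 201 CPM at 8 h. It reached 210, 233 and 218 CPM at 24 h and 233, 269 and 248 CPM at 72 h. All libraries from 8 h onward lay above all untreated ones. The log2 fold change of 0.44 at 8 h (adjusted p = 0.00105) was under the fold threshold. RUNX1 rose by 0.66 on the log2 scale at 24 h (SE 0.08, adjusted p = 6.61e-06) and by 0.85 at 72 h (SE 0.08, adjusted p = 6.34e-08). Without untreated library 1 its 24 h value was 0.58, below the fold threshold.

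KIT was at 12.1, 17.1 and 8.98 CPM untreated and at 17.2, 17.3 and 10.5 CPM at 2 h. It was at 28.7, 32.7 and 19 CPM at 8 h, 30.1, 31.1 and 24.5 CPM at 24 h and 24.6, 18.8 and 22.2 CPM at 72 h. The groups of 8, 24 and 72 h all lay above the untreated libraries, and the 72 h libraries lay at the lower edge of this range. The log2 fold change was 1.08 at 8 h (SE 0.26, adjusted p = 0.024) and 1.15 at 24 h (SE 0.26, adjusted p = 0.0128). At 72 h it was 0.76 (SE 0.25, adjusted p = 0.0587) and was not called. Leaving out single libraries ended these calls. The adjusted p at 8 h was 0.0873 without 8 h library 1, 0.0943 without 8 h library 2, 0.0907 without untreated library 1 and 0.0535 without untreated library 3. At 24 h it was 0.0504 without 24 h library 1, 0.0571 without 24 h library 2 and 0.0531 without untreated library 1. At 72 h KIT was called without untreated library 2, with a log2 fold change of 1.04 and an adjusted p of 0.0174. A fit with the library number as a block, given in the last section, also called it at 72 h. DESeq2 called 3 of the 8 genes at 72 h, where edgeR called 2.

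MECOM, the zinc finger factor of long-term stem cells whose short form is EVI1, was at 46.5, 52.1 and 41.0 CPM untreated and at 73.5, 77.0 and 74.0 CPM at 2 h. The log2 fold change at 2 h was 0.68 (SE 0.09, adjusted p = 7.7e-05). From 8 to 72 h its libraries ran from 56.3 to 69.2 CPM, all above the untreated ones, and its log2 fold changes of 0.45, 0.47 and 0.46 had adjusted p-values of 0.00237, 0.00126 and 0.000647 but were under the fold threshold. MEIS1, a homeobox factor that works with PBX proteins, was at 8.75, 8.32 and 10.2 CPM untreated and at 11.1, 15.1 and 11.9 CPM at 72 h. Its log2 fold change there was 0.49 (SE 0.16, adjusted p = 0.0346), under the fold threshold.

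GATA2, a zinc finger factor required for stem cell survival, gave a log2 fold change of 0.42 at 72 h (adjusted p = 0.0337), with untreated libraries at 169, 156 and 210 CPM and 72 h libraries at 232, 244 and 240. LYL1, a basic helix-loop-helix relative of TAL1, and HHEX, a homeobox factor of early blood and endothelial development, were called at no time. HHEX libraries ran from 63.6 to 75.1 CPM untreated and from 70.5 to 76.7 at 72 h, and those of LYL1 from 74.1 to 92.9 and from 70.4 to 77.3.

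Among genes whose products work with these factors, PBX3, of the family that pairs with MEIS1, rose by 1.66 on the log2 scale at 24 h, from 0.493 ± 0.159 to 1.54 ± 0.449 CPM (SD, n = 3, adjusted p = 0.01). At 72 h CBFA2T3, a corepressor of the GATA1 and TAL1 complex, rose from 136 ± 12.8 to 206 ± 8.65 CPM (adjusted p = 7.95e-06), and MYB, a factor of proliferating progenitors, fell from 278 ± 32 to 181 ± 6.98 CPM (adjusted p = 0.00013). These were 1 of 14 tested partner genes called at 24 h, against 4.2% of all genes, and 2 of 14 at 72 h, against 7.12%. Among 12 tested other stem and progenitor genes, SPI1, the myeloid factor PU.1, fell at 24 h from 25.7 ± 0.323 to 17.1 ± 2.57 CPM (adjusted p = 0.00291). ANGPT1, a secreted ligand of the TEK receptor, rose at 72 h from 87.4 ± 7.85 to 159 ± 11.4 CPM (adjusted p = 0.00041). At 72 h the erythroid marker list had 1 of 9 tested genes lower, KLF1, and its summed level was 1924 CPM against 2143 untreated. Of these sums TFRC alone held 1476 and 1646 CPM. The endothelial list had 1 of 2 tested genes higher at 72 h, ESAM. The list summed to 2.47 CPM against 1.87, with CDH5, VWF and KDR at 0 in both groups. Their part in the results of the BCOR table was not tested.

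**Figure D2:**
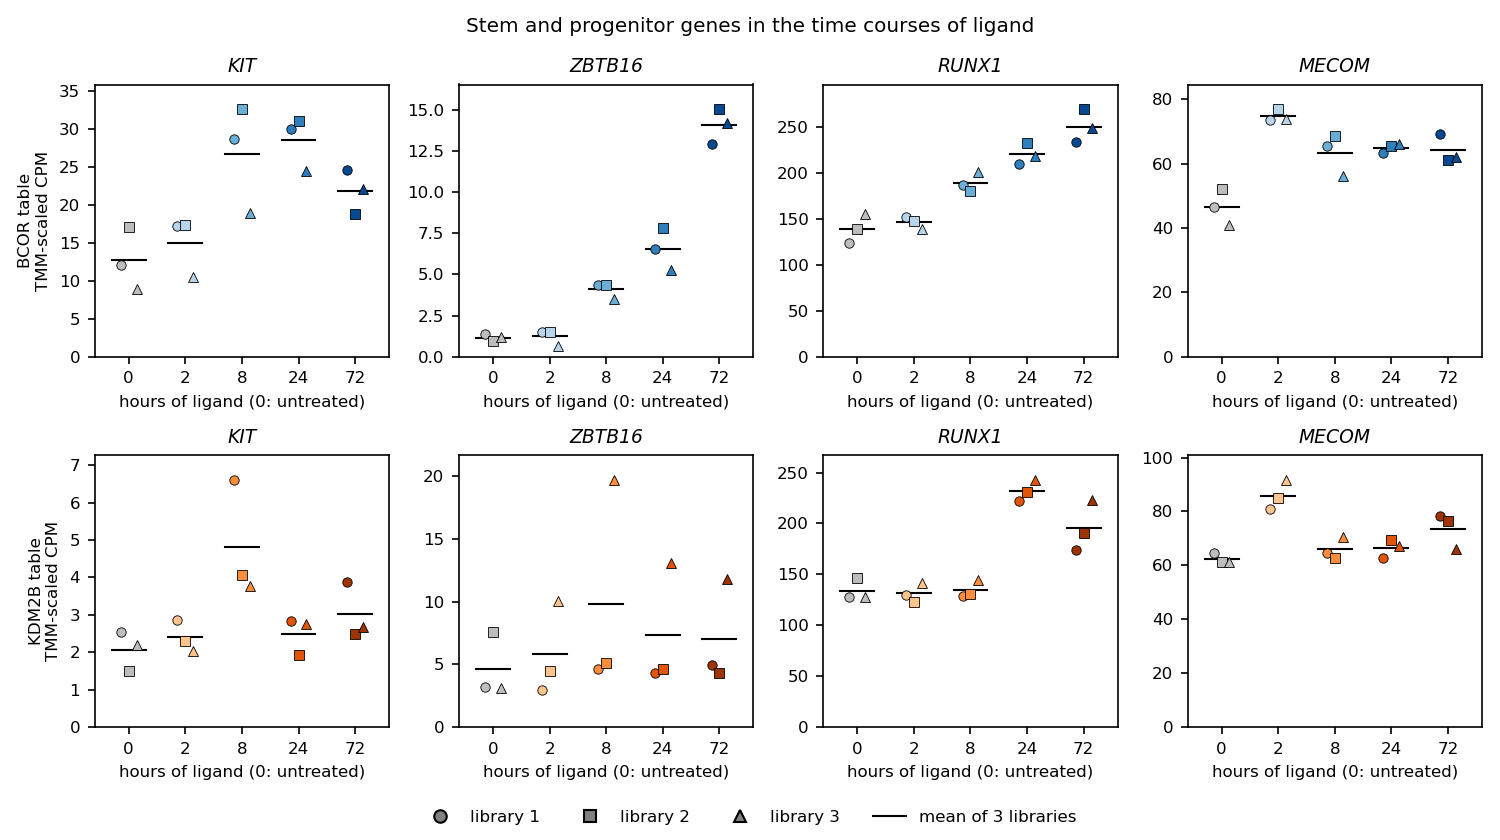
CPM of KIT, ZBTB16, RUNX1 and MECOM by hour of ligand in the BCOR (upper) and KDM2B (lower) time courses, with a marker for each library and a line at the mean of the 3 libraries. ZBTB16 climbs to between 13 and 15.1 CPM in the BCOR table, while in the KDM2B table its library 3 stands apart after ligand.

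Ligand in the KDM2B table was followed by a rise of KIT at 8 h and of RUNX1 at 24 h, and by smaller shifts of HHEX, GATA2 and MECOM that stayed under the fold threshold. Of the 8 genes, 0 were called at 2 h, against 1.76% of all genes tested, 1 at 8 h against 4.24%, 1 at 24 h against 12.5% and 0 at 72 h against 10.5%. Between 24 and 72 h 0 were called, against 1.86%. DESeq2 also called 0 of the 8 at 2 h, at 72 h and between 24 and 72 h. The unadjusted edgeR p was under 0.05 for 5 genes at 2 h, 4 at 72 h and 1 between 24 and 72 h. The share called at 24 h lies at the background. The untreated libraries are shared by the 4 time points.

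KIT was at 2.53, 1.49 and 2.19 CPM untreated and at 6.61, 4.08 and 3.78 CPM at 8 h, with no overlap. It rose by 1.21 on the log2 scale (SE 0.26, adjusted p = 0.00469). At 24 h its libraries were at 2.83, 1.92 and 2.76 CPM and at 72 h at 3.87, 2.49 and 2.68 CPM, both overlapping the untreated range. The log2 fold change was 0.28 at 24 h (adjusted p = 0.47) and 0.52 at 72 h (adjusted p = 0.183). Each KIT library of the KDM2B table lay below each one of the BCOR table, which was normalized separately.

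RUNX1 was at 128, 146 and 127 CPM untreated, and its 2 h and 8 h libraries spanned 123 to 144 CPM. At 24 h it was at 222, 231 and 243 CPM and at 72 h at 174, 190 and 223 CPM, all above the untreated libraries. It rose by 0.79 on the log2 scale at 24 h (SE 0.09, adjusted p = 1.14e-06). The 72 h value of 0.55 (adjusted p = 0.000112) was under the fold threshold, and it was 0.63 without 72 h library 1 and 0.62 without untreated library 2, which would have made it a call.

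ZBTB16 was at 3.18, 7.62 and 3.16 CPM untreated, 4.66, 5.12 and 19.7 CPM at 8 h, 4.3, 4.61 and 13.1 CPM at 24 h and 4.99, 4.33 and 11.9 CPM at 72 h. In each ligand group library 3 was the highest, at 10.1 CPM at 2 h, and the other libraries lay within the untreated range or just under it. Its log2 fold changes of 0.37, 1.02, 0.66 and 0.61 at 2, 8, 24 and 72 h were not called, with an SE of 0.79 at 8 h (adjusted p = 0.48). With library 3 of every group left out, an alternative added after these values were seen, they were -0.52, -0.12, -0.27 and -0.20. That omission drops the highest library of each ligand group and keeps untreated library 2, at 7.62 CPM. Lower values therefore follow from the choice of library, and no conclusion is drawn from them.

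MECOM was at 64.5, 61.1 and 61.2 CPM untreated and at 81.0, 84.8 and 91.8 CPM at 2 h, a separated pair of groups with a log2 fold change of 0.46 (adjusted p = 0.000815) under the fold threshold. MEIS1 was at 25, 25.5 and 25.7 CPM untreated and 17.6, 17.6 and 15.9 CPM at 2 h, below every untreated library. Its log2 fold change of -0.58 (adjusted p = 0.000365) lay at the edge of the fold threshold, and it was called without 2 h library 1 (-0.60), 2 h library 2 (-0.60) or untreated library 1 (-0.59). At 72 h MEIS1 was at 20.4, 23.9 and 22.9 CPM, with a log2 fold change of -0.18 (adjusted p = 0.141).

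HHEX was at 68.7, 72.7 and 66.0 CPM untreated and at 92.4, 100.0 and 99.3 CPM at 72 h. All 3 libraries at 72 h lay above the untreated ones, with log2 fold changes of 0.44 at 24 h (adjusted p = 0.000158) and 0.49 at 72 h (adjusted p = 7.19e-05), under the fold threshold. GATA2 gave -0.29 at 2 h (adjusted p = 0.00818), 0.23 at 8 h (adjusted p = 0.0268) and 0.33 at 72 h (adjusted p = 0.000674). LYL1 gave -0.46 at 2 h (adjusted p = 0.0203), with libraries at 77.0, 82.1 and 74.9 CPM under the untreated 99.3, 92.8 and 130.

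KITLG, which encodes stem cell factor, the ligand of KIT, rose at 8 h from 0.534 ± 0.23 to 1.26 ± 0.36 CPM (SD, n = 3, adjusted p = 0.0352) and stood at 1.39 ± 0.231 CPM at 72 h (adjusted p = 0.00914). It was the only called gene of 12 tested other stem and progenitor genes at each of these times. Of all genes 4.24% were called at 8 h and 10.5% at 72 h. PBX3 rose from 1.24 ± 0.384 to 2.89 ± 0.294 CPM at 8 h (adjusted p = 0.00384) and 2.56 ± 0.402 CPM at 72 h (adjusted p = 0.00665), the only called gene of 15 tested partners at those times. At 2 h 2 of the 15 partners were called, against 1.76% of all genes, both lower. MYB fell from 239 ± 37.7 to 155 ± 13.2 CPM (adjusted p = 0.000154), and LMO2, the adaptor of the TAL1 and GATA complexes, from 106 ± 19.3 to 69.3 ± 13.9 CPM (adjusted p = 0.0112). The endothelial list, nearly all of it ESAM, summed to 3.97 to 9.36 CPM over the untreated libraries and 8.52 to 14 CPM at 72 h, with CDH5 and KDR at 0. The erythroid sum was 2616 CPM untreated, 2154 at 24 h and 2481 at 72 h, of which TFRC alone held 1965, 1496 and 1773 CPM. COL1A1 of the fibroblast list was higher at 24 h, where the list summed to 2.95 CPM against 1.66 untreated. Their part in the results of the KDM2B table was not tested.

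In the construct table ligand raised KIT in the EV line, and in the dCxxC line this ligand effect differed from that of EV. In SF it also differed in the main fit, a call lost under most alternatives. RNA of KDM2B, counted over the whole gene with DMSO, was at 82.1 CPM in EV, and LF had 2386, SF 898, dLRRS 2929 and dCxxC 3622 CPM. With ligand, 1 of the 8 genes was called in EV, against 3.27% of all genes, and 0 were called in LF against 0.00629%, in SF against 0.0189%, in the dLRRS line against 3.41% and in the dCxxC line against 0.0189%. DESeq2 also called 0 in these 4 lines, and the unadjusted edgeR p was under 0.05 for 2, 0, 3 and 1 of the 8 genes there.

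KIT was at 2.69, 2.6 and 2.99 CPM in EV with DMSO and 6.76, 5.44 and 6.42 CPM in EV with ligand, with no overlap and a log2 fold change of 1.13 (SE 0.21, adjusted p = 0.000203). The first of these ligand libraries is the shallowest of the table and held 15 KIT counts. Without it the log2 fold change was 1.11 (adjusted p = 0.000302). KIT was at 6.74, 5.34 and 6.6 CPM in LF with DMSO and at 6.11, 5.79 and 9.75 CPM with ligand. In SF it was at 7.97, 5.86 and 4.85 CPM with DMSO and 7.23, 6.32 and 6.63 CPM with ligand. In both lines the DMSO and ligand libraries overlapped, and the DMSO libraries already stood in the range of EV with ligand or near it.

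In dLRRS KIT was at 2.74, 3.56 and 3.44 CPM with DMSO and 4.62, 3.69 and 3.91 CPM with ligand, separated but with a log2 fold change of 0.33 that was not called (adjusted p = 0.383). In dCxxC it was at 5.6, 3.64 and 4.69 CPM with DMSO and 3.69, 3.77 and 4.95 CPM with ligand, with a log2 fold change of -0.17 (adjusted p = 0.815). The log2 fold changes in LF and SF were 0.20 (adjusted p = 0.744) and 0.11 (adjusted p = 0.93).

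The ligand effect on KIT was smaller than in EV by 1.30 on the log2 scale in dCxxC (SE 0.29, adjusted p = 0.00607), the only one of the 8 genes called for that difference, against 1.51% of all genes, and without EV ligand library 1 it was -1.28 (adjusted p = 0.00661). In SF the difference was -1.02 (SE 0.27, adjusted p = 0.0425), the only one of the 8 called, against 0.729%, and this call was lost under 12 of 17 alternatives, with adjusted p-values up to 0.195. DESeq2 was among them, as was leaving out any 1 of the EV or SF libraries other than EV ligand library 2 and SF DMSO library 3. In LF, with 0 of the 8 called against 0.748%, the KIT difference was -0.93 (SE 0.27, adjusted p = 0.0687), with an interval of 2 SE from -1.48 to -0.38. Without LF ligand library 3 it was -1.20 (adjusted p = 0.00744) and was called. In dLRRS, with 0 of the 8 called against 0.0377%, it was -0.80 (SE 0.30, adjusted p = 0.184), with an interval from -1.39 to -0.21. DESeq2 also called 0 of the 8 in LF and dLRRS, and the unadjusted edgeR p was under 0.05 for 3 and 1 of them. Without EV ligand library 1 the difference was -0.998 in SF (adjusted p = 0.0507, not called), -0.91 in LF (adjusted p = 0.0842) and -0.78 in dLRRS (adjusted p = 0.277). The 4 differences share the EV libraries.

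RUNX1 was at 83.1, 85.1 and 87.4 CPM in EV with DMSO and 112, 108 and 104 CPM with ligand, all higher, with a log2 fold change of 0.33 (adjusted p = 0.00047) under the fold threshold. HHEX was at 66.2, 67.2 and 66.9 CPM and then 81.6, 81.2 and 80.6 CPM in EV, a log2 fold change of 0.28 (adjusted p = 0.000444) that was likewise under it. In dCxxC these ligand effects differed from EV by -0.32 for RUNX1 (adjusted p = 0.0451) and -0.31 for HHEX (adjusted p = 0.0125). Without EV ligand library 1 the effects in EV were 0.32 for RUNX1 (adjusted p = 0.00126) and 0.28 for HHEX (adjusted p = 0.000993), and the differences in dCxxC were -0.31 for each, with adjusted p-values of 0.0633 for RUNX1 and 0.0173 for HHEX. RUNX1 was at 125, 128 and 129 CPM in dCxxC with DMSO and 121, 134 and 131 CPM with ligand. In dLRRS GATA2 was at 233, 235 and 215 CPM with DMSO and 271, 272 and 269 CPM with ligand, all higher, at a log2 fold change of 0.25 (adjusted p = 0.000295).

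Set against EV with DMSO, the other 4 lines had between 2 and 4 of the 8 genes called, among them ZBTB16 in each. LF had 4 of the 8 called, 3 higher and 1 lower, against 15.3% of all genes, and SF had 4, 3 higher and 1 lower, against 13.6%. The dLRRS line had 2 called, both lower, against 11.9%, and dCxxC had 3, all higher, against 19.2%. The median log2 fold change of the 8 genes was 0.17, 0.45, -0.21 and 0.57 in LF, SF, dLRRS and dCxxC, where that of all genes was -0.02 or -0.01. These comparisons share the EV libraries, and how far a line stands for its construct and how far for its own history cannot be told apart.

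ZBTB16 spread the most over the lines. It was at 1.77, 2.04 and 2.01 CPM in EV, 9.27, 10.8 and 9.61 in dCxxC and 3.52, 3.32 and 3.81 in SF, all with DMSO. It was at 0.812, 1.49 and 0.388 CPM in LF and at 0.365, 0.336 and 0.43 in dLRRS. The order was dCxxC, SF, EV, LF, dLRRS, with overlap only between LF and dLRRS. Against EV the log2 fold change was 2.34 in dCxxC (SE 0.17, adjusted p = 3.63e-15), 0.86 in SF (SE 0.19, adjusted p = 0.000361), -1.07 in LF (SE 0.27, adjusted p = 0.00108) and -2.33 in dLRRS (SE 0.31, adjusted p = 5.55e-08). The LF value was -0.71 without LF DMSO library 3 and -1.68 without LF DMSO library 2, and it was called in both cases.

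RUNX1 was at 43.8, 45.1 and 43.1 CPM in dLRRS with DMSO, below every library of EV, and at 129, 146 and 157 CPM in LF, above them. Its log2 difference from EV was -0.95 in dLRRS (SE 0.07, adjusted p = 2.54e-15) and 0.76 in LF (SE 0.06, adjusted p = 2.6e-13). In SF it was at 116, 139 and 118 CPM, and the log2 differences of 0.55 in SF and 0.58 in dCxxC were under the fold threshold. Without EV library 3, SF library 1 or SF library 3 the SF value was between 0.59 and 0.60 and was called, and without EV library 2 or 3 or dCxxC library 1 or 3 the dCxxC value was between 0.59 and 0.61 and was called.

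KIT was higher than in EV by 1.18 on the log2 scale in LF (SE 0.20, adjusted p = 5.92e-06), by 1.18 in SF (SE 0.19, adjusted p = 3.95e-06) and by 0.77 in dCxxC (SE 0.21, adjusted p = 0.00215). In dLRRS the difference was 0.25 (adjusted p = 0.383). HHEX was at 116, 113 and 121 CPM in LF and 110, 111 and 108 CPM in SF, all above EV, with log2 differences of 0.80 (SE 0.05, adjusted p = 1.32e-16) and 0.72 (SE 0.05, adjusted p = 3.63e-15). In dCxxC HHEX was at 99.4, 95.3 and 102 CPM, and its difference of 0.57 was under the fold threshold but reached 0.59 without dCxxC library 2.

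MECOM was at 64.6, 67.8 and 69.1 CPM in EV, 44.8, 46.7 and 41.9 in SF and 40.3, 47.1 and 50.2 in LF. Both lines lay below every EV library. Its log2 difference from EV was -0.59 in SF (SE 0.06, adjusted p = 2.41e-10), a value at the fold threshold that was -0.57 without EV library 2, -0.55 without EV library 3 and -0.53 without SF library 3. In LF the difference was -0.55, not called, and was -0.60 without LF library 3. MEIS1 was at 14.6, 14.6 and 14.7 CPM in EV and 26.6, 28.3 and 23.1 CPM in dCxxC, with a log2 difference of 0.83 (SE 0.10, adjusted p = 1.82e-09). GATA2 was at 280, 282 and 280 CPM in SF against 225, 211 and 229 in EV, a log2 difference of 0.34 under the fold threshold.

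Among the partner genes, 3 of 15 tested were called for LF, 5 for SF, 2 for dLRRS and 5 for dCxxC. The shares of all genes called were 15.3%, 13.6%, 11.9% and 19.2% in that order. FLI1, an ETS factor close to ERG, was at 0.341 ± 0.121 CPM in EV, 9.35 ± 0.661 in dCxxC (SD, n = 3, log2 4.80, adjusted p = 8.62e-18) and 1.27 ± 0.324 in SF (adjusted p = 0.000174). CBFB, the partner subunit of RUNX1, was at 83.2 ± 5.28 CPM in EV and 172 ± 3.43 in dCxxC (adjusted p = 3.69e-17). MYB, at 212 ± 2.11 CPM in EV, was higher in LF (425 ± 12.5), SF (389 ± 3.34) and dLRRS (329 ± 4.58), and TAL1, at 208 ± 2.02 CPM in EV, was lower in them at 122 ± 4.48, 129 ± 3.82 and 126 ± 2.43. Their adjusted p-values ran from 8.67e-22 to 3.69e-15.

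Of 12 tested other stem and progenitor genes, 2 were called for LF, 2 for SF, 4 for dLRRS and 6 for dCxxC, beside the same shares of all genes. All 6 of dCxxC were higher, with SOX4, KITLG, ANGPT1 and ADGRG1 at log2 differences of 2.11, 1.92, 1.67 and 1.27. ADGRG1, an adhesion receptor of stem cells, was lower in LF (-1.86), SF (-0.90) and dLRRS (-2.68). With ligand, PBX3 rose in EV from 1.73 ± 0.353 to 3.54 ± 0.844 CPM (adjusted p = 0.0167) and in dLRRS from 1.91 ± 0.318 to 3.65 ± 0.351 CPM (adjusted p = 0.00362). The EV value of PBX3, a fitted log2 fold change of 0.86, includes the ligand library that stood apart and was not refitted without it. KITLG rose with ligand in dLRRS from 1.14 ± 0.477 to 2.52 ± 0.362 CPM (adjusted p = 0.0176). Erythroid markers moved with the lines. Of 9 tested, LF had 6 lower than EV, SF 6, dLRRS 5 and dCxxC 7, and none was higher, beside the same shares of all genes. Their sum was 3126 to 3579 CPM over the EV libraries, and it spanned 1923 to 2563 for LF, 2623 to 3066 for SF, 3175 to 3362 for dLRRS and 1847 to 1974 for dCxxC. The endothelial list, led by ESAM, summed to 3.61 CPM in EV, with LF at 0.701, SF at 0.671, dLRRS at 0.635 and dCxxC at 15 CPM, and with CDH5 at 0 in all 5. Of 3 tested lymphoid genes CD3G was higher in dLRRS, and CD3D and CD3G were lower in dCxxC, with sums of the list at 9.69 CPM in EV, 9.1 in dLRRS and 5.88 in dCxxC. COL1A1, the only tested fibroblast gene, was lower in dLRRS, and the list summed to 0.862 CPM against 1.92 in EV. With ligand it was higher in dLRRS, at a sum of 1.13 CPM. Their part in the differences between lines was not tested.

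**Figure D3:**
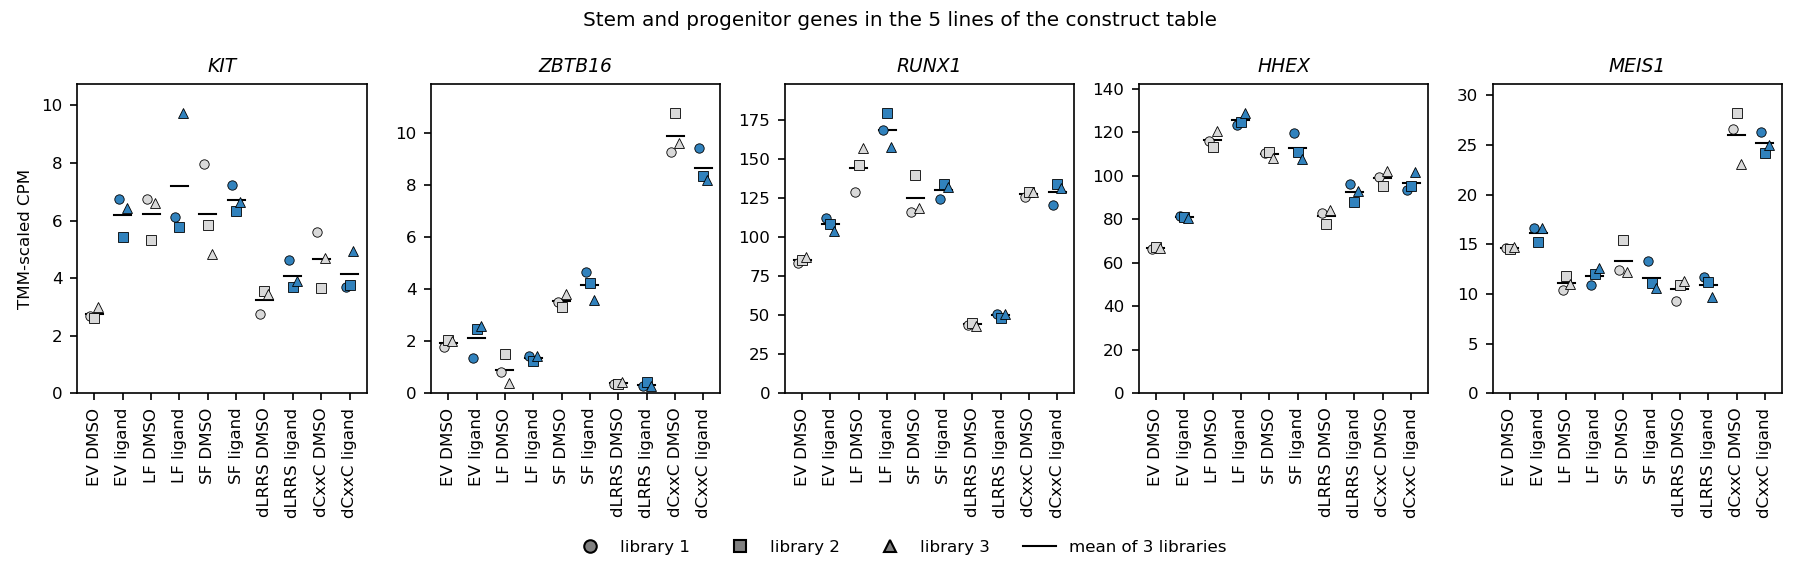
CPM of KIT, ZBTB16, RUNX1, HHEX and MEIS1 in the EV, LF, SF, dLRRS and dCxxC lines with DMSO (grey) or ligand (blue), with a marker for each library and a line at the mean of 3. ZBTB16 differs mainly between lines, from 0.336 to 0.43 CPM in dLRRS to 9.27 to 10.8 CPM in dCxxC with DMSO. In EV the ligand libraries of KIT, the only gene called there with ligand, all lie above the DMSO libraries.

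In the inhibitor table KIT, ZBTB16 and RUNX1 were highest with ligand and GSK343 together. With ligand alone 1 of the 8 genes was called, against 2.55% of all genes, with GSK343 alone 0 against 4.58%, and with both 3 against 10.7%. All 4 calls were rises. Both compounds against GSK343 alone gave 1 call, against 1.94%, and both against ligand alone gave 2, against 4.19%. For GSK343 alone DESeq2 also called 0 of the 8, and the unadjusted edgeR p was under 0.05 for 4. The comparisons with DMSO share the DMSO libraries.

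KIT was at 7.77, 8.75 and 7.82 CPM with DMSO, 14.2, 14.6 and 17.5 CPM with ligand, 8.99, 10.7 and 12 CPM with GSK343 and 26.9, 23.1 and 24.9 CPM with both. The 4 groups did not overlap. The log2 fold change against DMSO was 0.93 with ligand (SE 0.14, adjusted p = 0.000989), 0.41 with GSK343 (adjusted p = 0.0813, not called) and 1.62 with both (SE 0.13, adjusted p = 2.67e-07), a 3.07-fold rise. Both compounds gave 1.21 against GSK343 alone (SE 0.13, adjusted p = 5.27e-05) and 0.69 against ligand alone (SE 0.12, adjusted p = 0.00182). The interaction, how far the joint effect departs from the sum of the single effects on the log2 scale, was 0.28 for KIT (SE 0.19, adjusted p = 0.982), with an interval of 2 SE from -0.10 to 0.66. It was called for 0 of the 8 genes and for 0% of all genes. DESeq2 called 0 of the 8 as well, and the unadjusted edgeR p was under 0.05 for 0 of them.

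ZBTB16 was at 0.498, 1.05 and 0.991 CPM with DMSO, 1.15, 1.54 and 1.75 CPM with ligand, 0.972, 1.82 and 1.51 CPM with GSK343 and 2.92, 2.76 and 2.89 CPM with both. Only the group with both compounds lay above all others. It rose with both by 1.75 on the log2 scale (SE 0.31, adjusted p = 0.000519). The values of 0.81 with ligand (adjusted p = 0.246) and 0.88 with GSK343 (adjusted p = 0.124) were not called. Against ligand alone both compounds gave 0.94 (SE 0.28, adjusted p = 0.0459), a call lost in each of the 6 omissions of a library, with adjusted p-values from 0.078 to 0.16, and by DESeq2 (adjusted p = 0.121).

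RUNX1 was at 119, 117 and 125 CPM with DMSO, 156, 135 and 143 CPM with ligand, 188, 148 and 162 CPM with GSK343 and 195, 185 and 183 CPM with both. Every treated library lay above the DMSO libraries. It rose with both by 0.64 on the log2 scale (SE 0.08, adjusted p = 2.98e-05). With GSK343 alone it was 0.45 (SE 0.08, adjusted p = 0.00239), under the fold threshold, and with ligand alone 0.27 (adjusted p = 0.0926).

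The other 5 genes were called in no comparison of the inhibitor table. MECOM libraries spanned 68.7 to 88.4 CPM over the 4 treatments, MEIS1 11.3 to 15.8, HHEX 68.8 to 94.9, GATA2 194 to 243 and LYL1 79.1 to 126. PBX3 rose from 1.04 ± 0.308 CPM with DMSO to 2.98 ± 0.262 with GSK343 (SD, n = 3, adjusted p = 0.00221) and 4.93 ± 0.563 with both (adjusted p = 8.36e-06). KITLG rose from 0.28 ± 0.123 CPM to 1.4 ± 0.516 with ligand (adjusted p = 0.0261) and 1.74 ± 0.357 with both (adjusted p = 0.00101). With both compounds these were 1 of 13 tested partners and, with ADGRG1, 2 of 11 tested other stem and progenitor genes, against 10.7% of all genes. The erythroid sum lay between 1667 and 1703 CPM in all 4 groups. TFRC alone held 1402 CPM of it with DMSO, 1393 with ligand, 1453 with GSK343 and 1429 with both. The sum therefore says little of the other markers. The endothelial list summed to 2.28 CPM with DMSO and 6.61 with both, with ESAM at 2.17 and 5.91 CPM. Its part in the results of the inhibitor table was not tested.

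**Figure D4:**
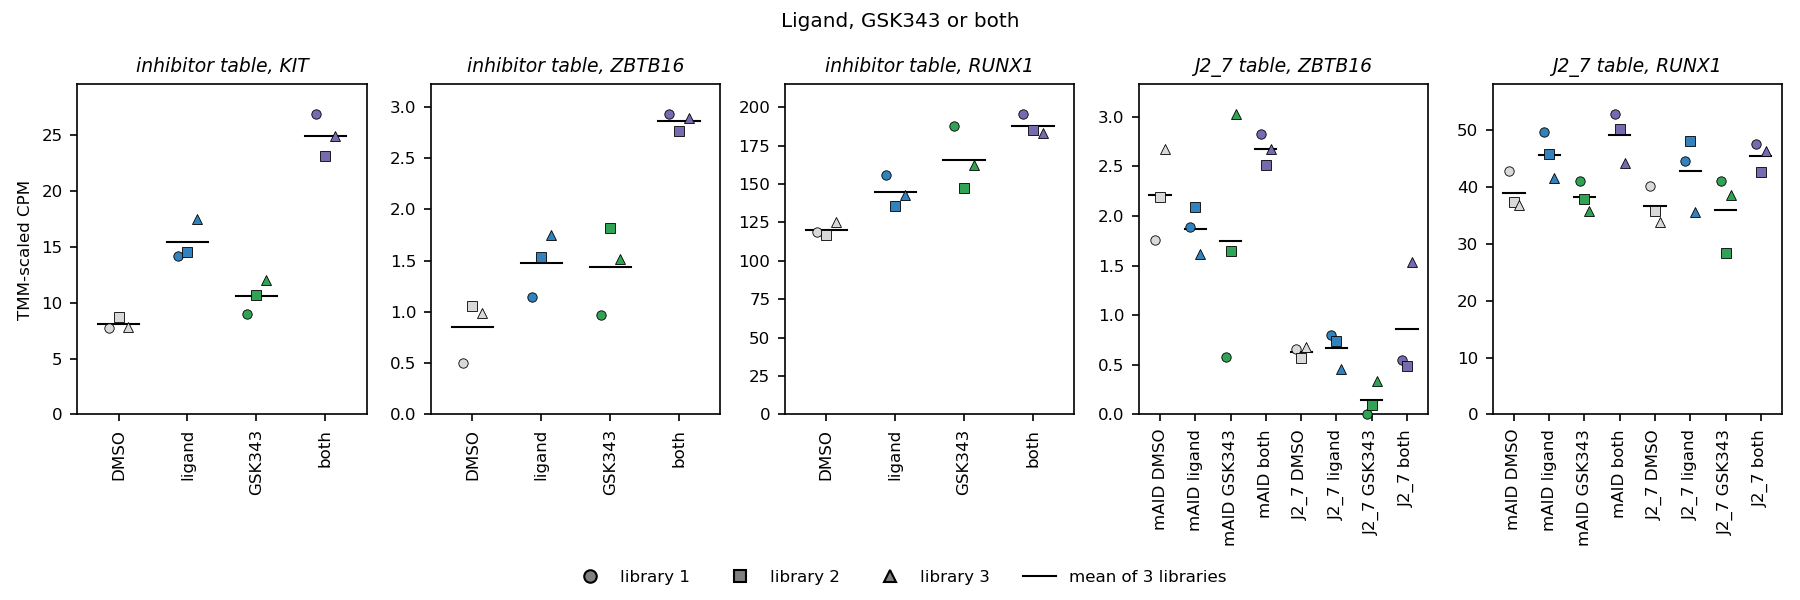
CPM of KIT, ZBTB16 and RUNX1 in the inhibitor table, and of ZBTB16 and RUNX1 in the mAID and J2_7 cells of the J2_7 table, under DMSO, ligand, GSK343 or both, with a marker for each library and a line at the mean of 3. KIT separates the 4 treatments of the inhibitor table, and ZBTB16 separates mAID from J2_7 cells with DMSO.

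In the J2_7 table none of the treatments moved any of the 7 tested genes past both thresholds, and J2_7 cells had less ZBTB16 than mAID cells. In KDM2B-mAID cells, called mAID here, 0 of the 7 were called with ligand against 2.31% of all genes, with GSK343 against 0.662% and with both against 6.3%. In KDM2B-mAID_J2_7 cells, called J2_7, 0 were called with ligand against 2.39%, with GSK343 against 2.31% and with both against 6.59%. Both compounds against GSK343 alone gave 0 calls in mAID, against 1.73%, and in J2_7, against 2.4%. DESeq2 called 0 in these 8 comparisons too, and in none of them was the unadjusted edgeR p under 0.05 for more than 3 of the 7 genes.

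KIT was too scarce for the test, with 3 counts over the 3 libraries of mAID with DMSO, 9 with ligand, 16 with GSK343 and 13 with both. Scaled by library size, the ratio to DMSO was 3.08 with ligand, with a 0.95 interval from 0.769 to 17.7 for counting error only. It was 6.31 with GSK343 (1.81 to 33.8) and 5.88 with both (1.61 to 32.1). In J2_7 cells there were 4 counts with DMSO, 5 with ligand, 1 with GSK343 and 12 with both, at a ratio of 3.14 (0.952 to 13.4) for both and 0.391 (0.00793 to 3.95) for GSK343. These ratios compare libraries and have no check against the spread between them.

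RUNX1 was at 42.7, 37.3 and 36.8 CPM in mAID with DMSO and 52.7, 50.3 and 44.3 CPM with both, with no overlap and a log2 fold change of 0.32 (SE 0.11, adjusted p = 0.0529). In J2_7 cells it was at 40.1, 35.9 and 33.8 CPM with DMSO and 47.5, 42.6 and 46.3 CPM with both, again apart, with 0.31 (adjusted p = 0.0483), under the fold threshold. The effect of both compounds differed between the lines by -0.01 for RUNX1, with an interval of 2 SE from -0.32 to 0.30. Against GSK343 alone, both compounds gave 0.42 in J2_7 (adjusted p = 0.0429), and 0.60 (adjusted p = 0.019), a call, without J2_7 GSK343 library 3.

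ZBTB16 was at 1.76, 2.2 and 2.67 CPM in mAID and 0.657, 0.566 and 0.676 CPM in J2_7 cells with DMSO, with no overlap. It was lower in J2_7 by 1.77 on the log2 scale as fitted (SE 0.40, adjusted p = 0.000818), 1 of the 7 genes called in this comparison, against 14.2% of all genes. With both compounds it was at 2.83, 2.51 and 2.67 CPM in mAID and 0.549, 0.49 and 1.53 CPM in J2_7. With GSK343 it was at 0, 0.0963 and 0.338 CPM in J2_7 cells, where library 1 is the shallow one, and the log2 value of -1.59 was not called (SE 0.77, adjusted p = 0.202). GATA2 was at 259, 222 and 248 CPM in mAID and 277, 304 and 303 CPM in J2_7 with DMSO, a log2 difference of 0.28 (adjusted p = 0.00637) under the fold threshold. Over all groups of the J2_7 table the libraries spanned 21 to 39.2 CPM for MECOM, 0 to 8.67 for MEIS1, whose 0 is the shallow library, 87.6 to 135 for HHEX and 258 to 410 for LYL1.

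No difference in response between the lines was called for these genes. The difference between J2_7 and mAID was called for 0 of the 7 with ligand against 0.00683% of all genes, with GSK343 against 0.123% and with both against 0.437%. DESeq2 called 0 each time, and the unadjusted edgeR p was under 0.05 for 0, 0 and 1 of the 7. PBX3 rose with both compounds in mAID from 0.715 ± 0.117 to 2.22 ± 0.818 CPM (SD, n = 3, adjusted p = 0.00746) and in J2_7 from 0.757 ± 0.2 to 2.58 ± 0.701 CPM (adjusted p = 0.000209). Between the lines with DMSO, 4 of 14 partners and 3 of 11 other genes were called, against 14.2% of all genes. TAL1 was higher in J2_7 (69.7 ± 0.674 against 35.8 ± 2.25 CPM), and MYB (66.8 ± 5.54 against 104 ± 1.79 CPM) and SPI1 (9.47 ± 0.984 against 27.8 ± 1.96 CPM) were lower. AEBP2, a PRC2.2 subunit, was at 17.1 CPM in mAID and 1.68 CPM in J2_7, and JARID2, the other, at 115 and 90.1 CPM. The erythroid list had 5 of 10 genes higher and 1 lower in J2_7, with sums of 20164 against 11454 CPM, and the endothelial list summed to 0.41 against 1.85 CPM. Of 3 tested lymphoid genes CD3D was lower in J2_7, with sums of 19.7 against 30.2 CPM, and it was higher in J2_7 cells with GSK343, at a sum of 32.6 CPM. Their part in the lower ZBTB16 was not tested.

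Over all 41 comparisons 35 of 316 tests of the 8 genes were called, or 11.1%, against 4.42% of the tests of all genes. The 5 comparisons of one line with another under DMSO held 14 of these calls among 39 tests, where 14.9% of all genes were called, and the other 36 held 21 among 277, where 2.86% were. The comparisons share libraries, and the genes were chosen with these results known. KIT had 13 of its 29, ZBTB16 11, RUNX1 6, MECOM 2, HHEX 2 and MEIS1 1 of 41 each, while GATA2 and LYL1 had 0 of 41. The log2 fold changes of GATA2 ran from -0.32 to 0.42 and those of LYL1 from -0.46 to 0.33. KIT was called after ligand, with or without GSK343, in 4 tables, RUNX1 in 3 and ZBTB16 in 2.

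**Figure D5:**
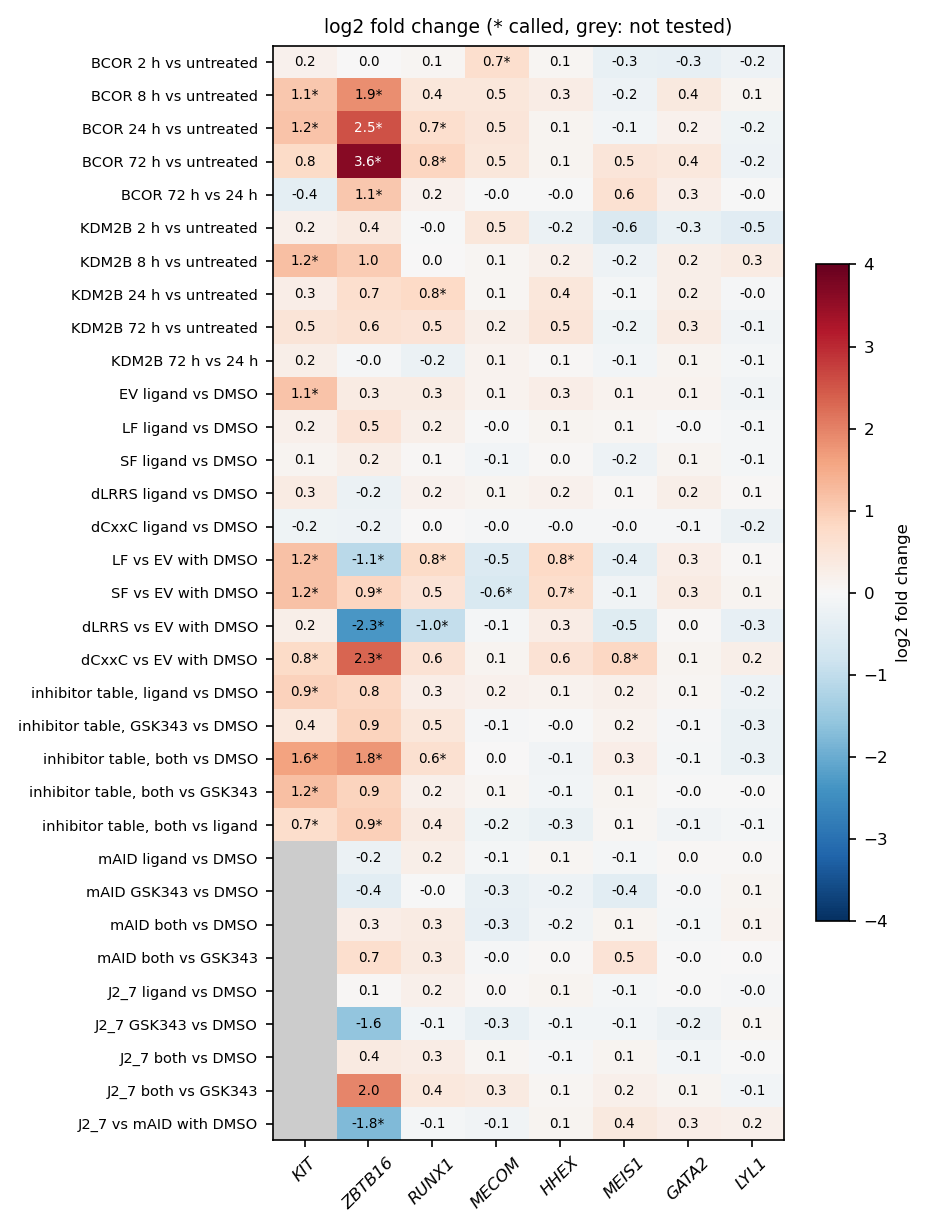
Fitted log2 fold change of each tested gene (columns) in each comparison of a pair of groups (lines), coloured from lower in blue to higher in red, with a star on called values and grey where KIT was not tested. KIT, ZBTB16 and RUNX1 hold most of the stars and GATA2 and LYL1 hold none.

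Profiles were the means of the 32 groups, centred within each table. They serve as a description, in which groups of a table share controls and depth. KIT, under the filter in the J2_7 table, was left out here. For each gene that passed the filter in all 5 tables, the 3 genes most like it were taken by Pearson's r among 11294 genes. For ZBTB16 they were SSH1 (0.884), PDGFB (0.849) and CBFA2T3 (0.839). For RUNX1 they were IQSEC2 (0.859), TSPAN5 (0.842) and SLC1A4 (0.834), and for MECOM they were WWP1 (0.879), TENT5A (0.850) and SFMBT1 (0.850). HHEX was followed by DHX32 (0.877), FAM241A (0.828) and KLF9 (0.815), and MEIS1 by C18orf54 (0.803), BLZF1 (0.790) and PIP5K1C (0.787). The values were lower for LYL1, with MILIP at 0.797, and for GATA2, with ZBTB11 at 0.724. Among these 7 genes, without KIT, the pairs most alike were GATA2 with HHEX (0.693), MEIS1 with ZBTB16 (0.637) and RUNX1 with ZBTB16 (0.625).

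The genes lie apart in the genome, in hg38 coordinates of the GENCODE annotation. GATA2 is on chromosome 3 at 128479427 to 128493201 and MECOM on the same chromosome at 169083499 to 169663775, both on the minus strand. RUNX1 (34787801 to 36004667) and ERG (38380027 to 38661780) are on the minus strand of chromosome 21. On the plus strand, KIT spans 54657267 to 54740783 of chromosome 4, ZBTB16 spans 114059041 to 114256765 of chromosome 11, MEIS1 spans 66433452 to 66573869 of chromosome 2 and HHEX spans 92689955 to 92695647 of chromosome 10. LYL1 is on chromosome 19 at 13099033 to 13103161 and CD34 on chromosome 1 at 207880972 to 207911402, on the minus strand. The sources used here do not give whether counting used the strand. GATA2-AS1, on the strand opposite GATA2 from 128489212 to 128502970, reached up to 26.7 CPM, so reads of GATA2 and of this overlapping RNA may not be told apart, and the opposite-strand genes of the others reached at most 0.211 CPM.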

How the data were processed

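RNA of K562 cells was measured in 96 libraries. Of the deposited tables, 4 give a raw count per gene ID, as their whole numbers show. The J2_7 file as deposited gives an expected count (an estimated count) per gene symbol, with 57.9% of nonzero values whole, and its values were rounded. Per the labels' protocols, total RNA from RNeasy kits went into KAPA RNA HyperPrep libraries with ribosomal RNA removed, or for the J2_7 table alternatively Smart-3SEQ, and reads were aligned to hg38 with STAR or Strand Avadis NGS. Trim Galore 0.6.7 is named in the submitters' processing notes. The counter and strand setting are left unnamed by these sources.

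Groups came from the labels, and 0 columns were left unused. In the KDM2B, construct and inhibitor tables library numbers are those of the column names, which the titles do not carry, and only name a library. The J2_7 table's 92 spike-in entries were left out. Each table was fitted on its own with edgeR 4.0.16 in R 4.3.3 (filterByExpr, TMM, robust quasi-likelihood F test over all groups of the table), on 14110, 14524, 15910, 13374 and 14649 genes for BCOR, KDM2B, construct, inhibitor and J2_7. Adjusted p-values are Benjamini-Hochberg values over all genes, and a call needed both a value under 0.05 and a log2 fold change beyond 0.585 in either direction. The SE was taken as the size of the log2 fold change over the root of F. The fit was tested on simulated data. Replicate pairs of a group differed by more than counting noise throughout, with a chi-square per gene of 1.66 at the lowest, and library 1 of EV with ligand stood apart from its group.

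The 10 genes were named in every comparison. From the 2 other lists, of 16 partner genes and 24 stem and progenitor genes, up to 4 called genes with groups that do not overlap were named by size of change, of which the text gives the leading ones. The genes and lists were chosen with earlier results of these data known. Alternatives were DESeq2 1.42.0, its size factors, no filter, a fit of only the groups compared, omission of each library and a replicate block. Intervals of ratios cover counting error only. Total counts were 5806624 to 18519442 (BCOR), 10429112 to 19910440 (KDM2B), 2346542 to 22611557 (construct), 4268383 to 24545679 (inhibitor) and 782663 to 12740071 (J2_7).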

Additional observations from a re-analysis of the deposited data

Results flagged for a closer look

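The ligand effect on KIT differed from that in the EV line by a test of the difference itself in 2 lines of the construct table, by -1.30 on the log2 scale in dCxxC and by -1.02 in SF. The SF call was lost under most alternatives, and DESeq2 called 0 of the 8 genes for that difference. MEIS1 had values of opposite sign in the time courses at 72 h, neither of them called. Its log2 fold change was 0.49 in the BCOR table (adjusted p = 0.0346, under the fold threshold), where every 72 h library lay above every untreated one, and -0.18 in the KDM2B table (adjusted p = 0.141), where every 72 h library lay below every untreated one. The difference between the tables was not tested, since each table was fitted on its own.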

How the results depend on the processing

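Of the 35 calls, 29 held under every alternative and 6 were lost under at least 1, while 10 of the 281 uncalled results were called under at least 1, and 0 called values changed sign. The number of genes called moved by over 1.5 times in these comparisons. At 8 h in the BCOR table it went from 2 to 1 with only the compared groups fitted and with no filter on low counts, and ran from 1 to 2 over omissions of a library. At 24 h in the BCOR table omissions gave 1 to 3 in place of 3. Between 72 and 24 h in the BCOR table, where 1 was called and omissions gave 1 throughout, the fit of the compared groups, no filter and the replicate block each gave 2. Omissions gave 0 to 1 in place of 0 at 2 h and at 72 h in the KDM2B table and for both compounds against GSK343 in J2_7 cells. For the ligand effect in LF less that in EV, no filter gave 1 in place of 0 and omissions gave 0 to 1. For SF less EV, DESeq2 and the fit of the compared groups gave 0 in place of 1, and omissions gave 0 to 1. For both compounds against ligand in the inhibitor table, DESeq2, no filter and every omission gave 1 in place of 2. The cause was not tested.

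Libraries were treated as unpaired because in none of the tables did every same-numbered pair correlate over 0.1. The correlation of same-numbered libraries ran from -0.127 to 0.473 in the BCOR table (median 0.181, against -0.0997 for other pairs), -0.461 to 0.352 in J2_7, -0.441 to 0.484 in KDM2B (median 0.144, against -0.132), -0.451 to 0.42 in construct and -0.283 to 0.274 in inhibitor. In the last 3 the numbers are those of the column names, and their block was added after the data were seen. The replicate block called KIT at 72 h in the BCOR table (log2 fold change 0.80, adjusted p = 0.00227, over all alternatives 0.00227 to 0.17) and MEIS1 there between 72 and 24 h (0.59, adjusted p = 0.0328). For LF less EV the replicate block gave 1 in place of 0, KIT (-0.95, adjusted p = 0.0441), and it changed no other call.

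Without the J2_7 table (24 groups), the 3 most similar genes shared 2 with those over all groups for MECOM, 1 for ZBTB16, GATA2 and HHEX and 0 for RUNX1, MEIS1 and LYL1. Counts of CD34 and ERG, and of KIT in the J2_7 table, were too few to test. Why KIT counts were so low in the J2_7 table was not tested.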
